A study of Mus musculus with 6 samples.

Results

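E cells and RE cells of EpH4, a non-cancer mouse mammary epithelial cell line, were compared across all genes in the 4 libraries E1, E2, RE1 and RE2, out of 6 sequenced in the series. E cells had never received TGFβ1. RE cells (reverted epithelial) had been exposed to TGFβ1 for 7 days and were then kept in normal medium for another 4 days. Both grew in the same D-MEM/F12 medium with fetal bovine serum, penicillin-streptomycin and recombinant human insulin. The M libraries were made from cells at the end of the TGFβ1 exposure. They entered the normalisation, the choice of genes tested and the statistical fit, where they helped to estimate the spread between replicates. The study calls the replicates biological, but the labels speak of RNA from 3 replicas where 2 libraries per stage were sequenced. Whether cultures were pooled is not given in the sources used here, so the p-values measure only the spread between these libraries. Each library was made from a whole culture, in which fewer cells of a type and less RNA per cell cannot be told apart.

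As background, epithelial cells exposed to TGFβ1 can undergo epithelial-to-mesenchymal transition (EMT), in which tight and adherens junctions are dismantled, cortical keratin networks are remodelled and the cells begin to make a fibrillar matrix. The Zeb, Snail and Twist factors drive this programme and bind E-box motifs in the promoters of junction genes, which they repress. The opposite change, mesenchymal-to-epithelial transition (MET), restores junctions and polarity. The comparison of E and RE cells asks whether the transcriptome of cells that have been through both changes differs from that of cells that have been through neither.

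The deposited values behave as sequenced bases summed over each gene (coverage) and are given here as ppm of the library total after TMM normalisation, a correction for differences in library composition. Coverage grows with transcript length, so the levels below compare libraries and not genes. The 4 libraries hold between 35782513 and 46321863 reads' worth of 50 bases, and 3 reads' worth, taken as the floor of detection, correspond to between 0.0632 and 0.0787 ppm. The replicates of E cells lay further apart than those of RE cells, with a standard deviation of the log2 difference over 13893 genes of 0.56 between E1 and E2 and of 0.31 between RE1 and RE2. More than 2-fold differences separated E1 from E2 for 7.67% of the genes and RE1 from RE2 for 1.61%.

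E and RE cells were different across a broad set of genes. Of 13893 genes tested, 823 (5.92%) were called higher in RE cells and 439 (3.16%) were called lower, at a log2 fold change over 1 either way and an adjusted p below 0.01 in limma. Together these were 9.08% of the genes tested, and over all genes the log2 fold change (RE over E) had a median of -0.00229. Fold changes are on the scale of log2(ppm + 0.1), which understates the change of genes near the floor, and are given ± standard error. Both RE libraries lay above both E libraries for 4682 genes (33.7%) and below them for 4626 (33.3%), 67% in all, so that non-overlap alone was common. All 1262 called genes were among them, so statements below that the libraries of a called gene lie apart only describe its values. Changes of over 2 on the log2 scale were found for 240 genes called higher and 113 called lower. A fit to the 4 E and RE libraries without the M libraries left 462 calls. It kept the normalisation and the genes tested from all 6 libraries. The number that also passed in that fit is given for most gene lists below. The number of calls also changed when a single library was left out with all groups in the fit. It rose without E1 or E2 and fell steeply without RE1 or RE2. Without an E library the spread was estimated from the M and RE pairs, and without an RE library from the E and M pairs. Of 1154 list members tested 237 were called, and this number moved in the same directions in these 4 fits.

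**Figure D1:**
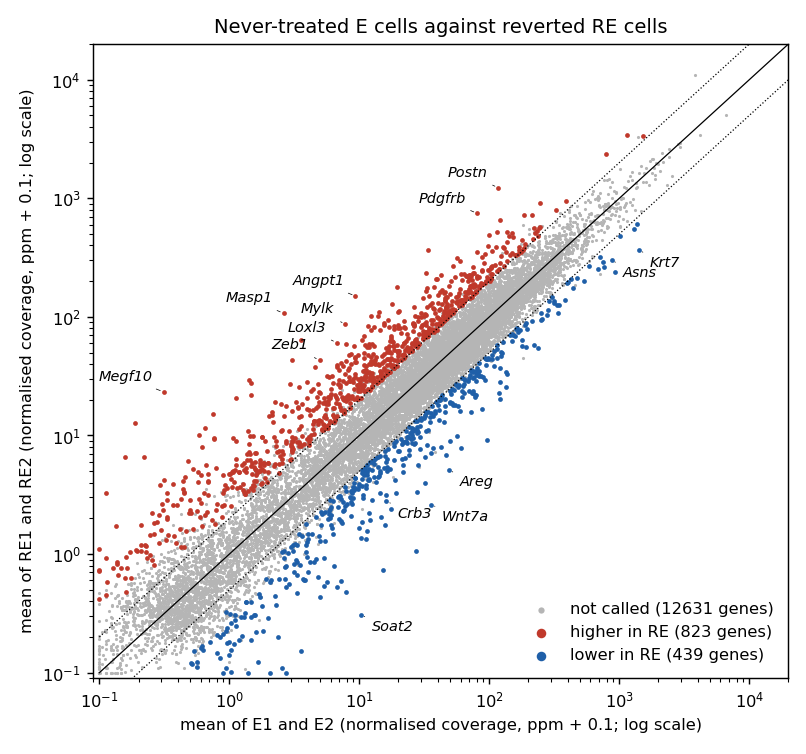
Mean normalised coverage of each of the 13893 genes tested in the E libraries (horizontal) and the RE libraries (vertical), in ppm plus 0.1 on log axes, with the line of equality and dotted lines at a 2-fold difference. Red points are the 823 genes called higher and blue points the 439 called lower in RE cells, and named genes such as *Megf10*, *Masp1* and *Soat2* lie farthest from the diagonal.

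The genes with the largest changes upward belonged to several families. *Megf10*, a receptor for the engulfment of apoptotic cells, lay at 0.162 and 0.262 ppm in E1 and E2 and at 32.1 and 14.3 ppm in RE1 and RE2 (log2 fold change 6.13 ± 0.39, adjusted p = 0.00028). *Islr*, a secreted leucine-rich repeat protein of mesenchymal stromal cells, rose from 0.0463 and 0.131 ppm to 16.6 and 8.64 ppm (log2 fold change 6.04 ± 0.61, adjusted p = 0.00103). *Slc1a3*, a glutamate and aspartate transporter, rose from 1.14 and 1.505 ppm to 25.4 and 32.7 ppm (log2 fold change 4.36 ± 0.24, adjusted p = 0.000268). In all these genes the E libraries were near the floor or within a few ppm, and the RE libraries stood well apart from them. *Adamtsl2*, a secreted modulator of microfibrils and of TGFβ availability, was at 1.3 and 0.752 ppm in the E libraries and 25.8 and 15.3 ppm in the RE libraries (log2 fold change 4.19 ± 0.60, adjusted p = 0.00324). *Mc5r*, a melanocortin receptor, was at 0.324 and 0.971 ppm and 18.7 and 11.7 ppm (log2 fold change 4.47 ± 0.52, adjusted p = 0.00152). Further members of the same group were *Wscd2*, *Cmya5* and *Fyb*, an adaptor of leucocyte signalling, with log2 fold changes of 4.18, 4.12 and 3.90. RE1 lay well above RE2 for *Megf10* and *Islr*, and both lay above both E libraries.

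The largest changes downward were found in genes of unrelated functions. *Soat2*, which esterifies cholesterol, was at 4.304 and 16.05 ppm in the E libraries and 0.141 and 0.2698 ppm in the RE libraries (log2 fold change -4.82 ± 0.58, adjusted p = 0.00171). *Angptl6*, a secreted angiopoietin-like factor, was at 20.2 and 34.4 ppm and 1.004 and 0.934 ppm (log2 fold change -4.63 ± 0.36, adjusted p = 0.000488). *Car6*, a secreted carbonic anhydrase, was at 11.01 and 19.2 ppm and 0.607 and 0.6498 ppm (log2 fold change -4.33 ± 0.30, adjusted p = 0.000393). E2 lay above E1 in each of these genes, and both RE libraries were far below either. *B3gnt7*, a glycosyltransferase of keratan sulphate synthesis, fell from 11.5 and 10.7 ppm to 0.841 and 1.62 ppm (log2 fold change -3.14 ± 0.30, adjusted p = 0.00084). *Cdsn*, an adhesive protein of corneodesmosomes, fell from 14.6 and 40.6 ppm to 3.53 and 2.93 ppm (log2 fold change -2.88 ± 0.50, adjusted p = 0.00618). Among the 12 largest falls were also *Trim46* and *AC123702.11*, with log2 fold changes of -2.99 and -2.89, and *Cyp2f2*, described below. In absolute coverage the largest losses included *Myh14*, a non-muscle myosin heavy chain of epithelial cells, at 755 and 1088 ppm in the E libraries and 246 and 233 ppm in the RE libraries (log2 fold change -1.92 ± 0.24, adjusted p = 0.00188).

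The calls were unevenly spread over the gene lists examined. Between 38.9% and 45.5% of the tested EMT transcription factors, mesenchymal and contractile genes, TGFβ ligands and receptors, collagens, matrix glycoproteins and clock genes were called higher, against 5.92% of all genes. On the other side, 63.6% of the mammary epithelial identity markers, 30.3% of the junction genes and 23.1% of the keratins were called lower, against 3.16% of all genes. The identity markers share called genes with both other lists, among them *Krt7*, *Krt18*, *Cldn4* and *Cldn7*, so these shares are not independent. No member was called either way among 21 glycolysis genes, 18 genes of MHC class I antigen presentation and 29 genes of DNA and histone methylation. The shares of all genes, 5.92% higher and 3.16% lower, also apply to the counts in the lists below.

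**Figure D2:**
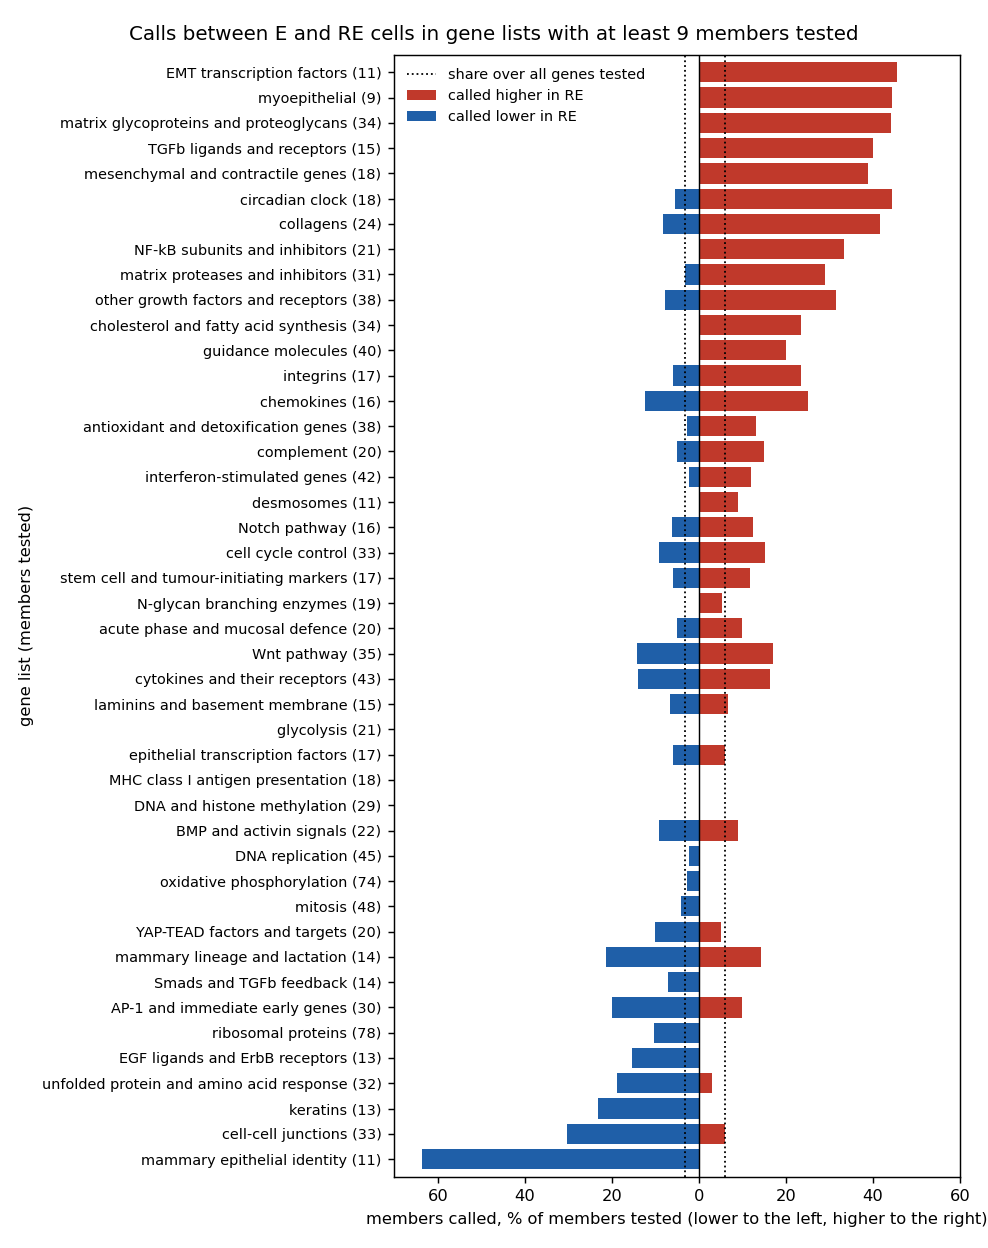
Share of tested members called lower (blue, to the left) and higher (red, to the right) in RE cells for each gene list with at least 9 members tested, with the number tested in parentheses. The dotted lines mark the shares over all genes, 3.16% lower and 5.92% higher, and the lists at the top and bottom reach 45.5% higher and 63.6% lower.

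Some genes that build epithelial junctions and polarity were lower in RE cells. Of 33 junction genes tested, 10 were called lower, 2 higher and 21 neither, and their median log2 fold change was -0.79. Both RE libraries lay below both E libraries for 23 of them and above for 9, against 33.3% and 33.7% of all genes. The summed level of the list was 4239.5 and 4582.7 ppm in E1 and E2 and 4723.5 and 4445.8 ppm in RE1 and RE2. The abundant *Ctnnb1* (β-catenin) was not called, at 931 and 811 ppm and 1475 and 1291 ppm. *Crb3*, the Crumbs protein that positions the apical membrane and tight junctions, was at 17.1 and 14.99 ppm in E1 and E2 and 2.796 and 2.57 ppm in RE1 and RE2 (log2 fold change -2.54 ± 0.24, adjusted p = 0.000857). *Pard6b*, a partner of atypical protein kinase C in the Par polarity complex, was at 34.3 and 55.1 ppm and 12.4 and 13.2 ppm (log2 fold change -1.76 ± 0.23, adjusted p = 0.00239). *Cgn* (cingulin), which links tight junctions to actomyosin, was at 100.5 and 129.7 ppm and 44.5 and 45.1 ppm (log2 fold change -1.35 ± 0.15, adjusted p = 0.0014). The E and RE libraries did not overlap for any of these genes, and the RE replicates lay close together. *Pvrl2* (nectin-2), an adhesion molecule of adherens junctions, fell from 40.3 and 59.3 ppm to 17.9 and 19.6 ppm (log2 fold change -1.38 ± 0.22, adjusted p = 0.00445), and the claudin *Cldn7* from 132 and 118 ppm to 51.4 and 47.2 ppm (log2 fold change -1.34 ± 0.13, adjusted p = 0.000868). Upward, the scaffold *Mpp5* (Pals1), which binds Crumbs proteins, rose from 27.1 and 27.97 ppm to 59.8 and 52.3 ppm (log2 fold change 1.02 ± 0.13, adjusted p = 0.00231). In the fit without the M libraries, 4 of the 10 lower calls and 0 of the 2 higher calls passed.

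The promoters of the junction genes called lower are shown because Zeb and Snail factors, described below, recognise the E-box CACCTG. Promoter sequence was taken from RefSeq for the build GRCm38.p6, which is newer than the build of the reads, and 250 bases before each gene's start were searched on both strands. The motif was present in 19.4% of all 27025 genes with a promoter sequence and in 6 of the 9 junction genes called lower that had one, namely *Tacstd1* (the older symbol of *Epcam*), *Cldn4*, *Cldn7*, *Crb3*, *Pard6b* and *Pvrl2*. *Tacstd1* and *Cldn4* are named for this motif and were chosen after their values were seen. For *Crb3*, *Pard6b*, *Pvrl2* and *Cldn7* the window around the match farthest from the start is printed 5′ to 3′ on the strand of the gene, with the motif or its reverse complement in capitals. The windows lie at chr17:57062058-57062113 (plus strand), chr2:168080838-168080893 (plus strand), chr7:19749596-19749651 (minus strand) and chr11:69965299-69965354 (plus strand). *Crb3* held 3 matches in its 250 bases, *Pard6b* and *Cldn7* held 2 each and *Pvrl2* held 1.
Crb3: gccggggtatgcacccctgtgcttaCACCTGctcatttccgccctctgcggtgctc
Pard6b: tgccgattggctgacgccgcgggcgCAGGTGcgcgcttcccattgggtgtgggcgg
Pvrl2: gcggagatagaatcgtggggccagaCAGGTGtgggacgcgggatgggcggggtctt
Cldn7: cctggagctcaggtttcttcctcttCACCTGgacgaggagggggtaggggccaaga
Here and in the windows shown for other genes, a match describes the letters in the window, overlaps none of the other motifs searched and was not tested as a binding site.

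A few keratins, the filament proteins of epithelia, were also lower. Of 13 keratins tested 3 were called lower and none higher, with a median of -0.31, and 1 of the 3 calls passed without the M libraries. *Krt18*, the partner of *Krt8* in simple epithelia, was at 879 and 616 ppm in the E libraries and 269 and 311 ppm in the RE libraries (log2 fold change -1.35 ± 0.19, adjusted p = 0.00321). *Krt80*, a filament protein associated with differentiating epithelia, was at 68.9 and 116 ppm and 28.9 and 29.7 ppm (log2 fold change -1.61 ± 0.23, adjusted p = 0.00328). *Krt8* itself lay at 223 and 182 ppm and 121 and 132 ppm, a log2 fold change of -0.67 (adjusted p = 0.0131) that passed neither limit. *Krt14*, a basal keratin, was not called, at 315 and 225 ppm and 322 and 335 ppm. Among 17 epithelial transcription and splicing regulators, the splicing factor *Esrp1* (listed under its older symbol *Rbm35a*) fell from 242 and 425 ppm to 129.7 and 124 ppm (log2 fold change -1.34 ± 0.24, adjusted p = 0.00761), and *Trp63*, the p53 relative of basal cells, rose from 58.9 and 82.4 ppm to 172 and 158 ppm (log2 fold change 1.24 ± 0.19, adjusted p = 0.00432). Neither of these 2 calls passed without the M libraries. Of 11 desmosome genes only *Dsg3*, a desmosomal cadherin of stratified epithelia, was called, rising from 0.2905 and 0.472 ppm to 6.52 and 5.43 ppm (log2 fold change 3.68 ± 0.28, adjusted p = 0.000488). Of the 12 markers of mammary epithelial identity, 11 were tested and 7 were called lower, with a median of -1.25, and 3 of the 7 passed without the M libraries. Their summed level was 3853 and 3717 ppm in E1 and E2 and 1457 and 1574 ppm in RE1 and RE2, and no marker was at the floor in all 4 libraries. Much of this fall lay in *Krt7* and *Krt18*, and 4 tested markers, *Krt8* among them, were not called. The identity markers called lower include *Krt7*, *Krt18* and *Esrp1* from the lists above and *Tacstd1*, *Cldn4* and *Cldn7* from the junction genes.

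**Figure D3:**
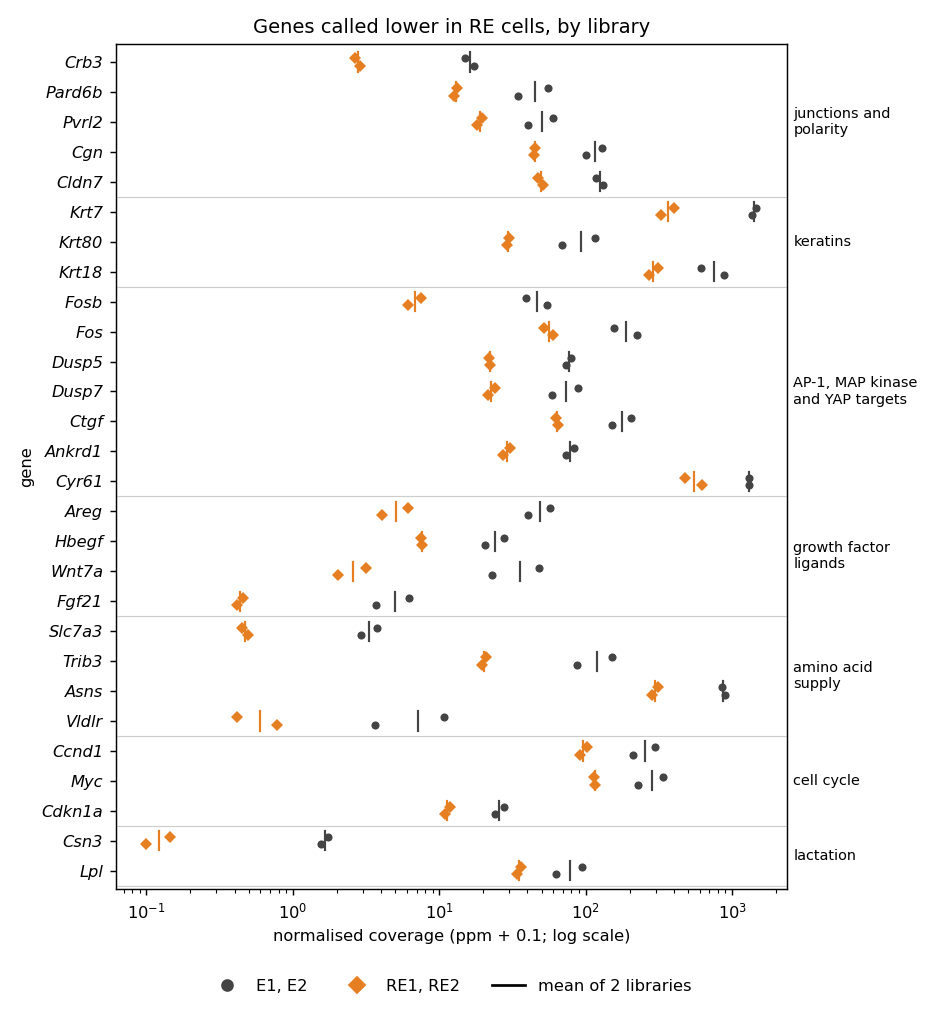
Normalised coverage in ppm plus 0.1 (log axis) of 28 genes called lower in RE cells, grouped by role, with grey circles for E1 and E2, orange diamonds for RE1 and RE2 and a vertical line at the mean of each pair. As for every gene called lower, both RE libraries lie to the left of both E libraries, with wide gaps in *Csn3*, *Areg*, *Wnt7a* and *Fgf21*.

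Some transcription factors that drive EMT were higher in RE cells. Of 11 tested, 5 were called higher, none lower and 6 neither, with a median of 1.02, and 2 of the 5 passed without the M libraries. *Zeb1*, a zinc finger repressor of junction genes, lay at 3.52 and 6.16 ppm in the E libraries and 43.3 and 42.8 ppm in the RE libraries (log2 fold change 3.18 ± 0.25, adjusted p = 0.00049). *Tcf4*, a basic helix-loop-helix factor that binds E-boxes, lay at 41.9 and 70.9 ppm and 135 and 129 ppm (log2 fold change 1.27 ± 0.23, adjusted p = 0.00725). The RE libraries differed from each other by little in both genes, whereas E2 exceeded E1. *Zeb2* and *Snai1* were also called.

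Some mesenchymal and contractile genes were also higher. Of 18 tested, 7 were called higher and none lower, with a median of 1.25, and 3 of the 7 passed without the M libraries. *Postn* (periostin), a matricellular protein, was at 123 and 110.5 ppm in E1 and E2 and 1511 and 942 ppm in RE1 and RE2 (log2 fold change 3.35 ± 0.23, adjusted p = 0.000335). *Pdgfrb*, the receptor for PDGF-BB typical of pericytes and fibroblasts, was at 64.9 and 95.97 ppm and 806 and 686 ppm (log2 fold change 3.23 ± 0.20, adjusted p = 0.00028). *Acta2* (smooth muscle actin) was at 0.252 and 0.685 ppm and 4.02 and 3.82 ppm (log2 fold change 2.93 ± 0.35, adjusted p = 0.00167). Both groups were well separated in each of these genes. *Cnn1* (calponin), a regulator of actomyosin, rose from 0.121 and 0.209 ppm to 1.64 and 1.78 ppm (log2 fold change 2.79 ± 0.32, adjusted p = 0.00146), and *Mylk*, the kinase that phosphorylates the myosin light chain, from 6.76 and 8.63 ppm to 95.9 and 77.3 ppm (log2 fold change 3.48 ± 0.21, adjusted p = 0.00028).

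Several of these genes are also markers of other cell types of the mammary gland. Of the 9 fibroblast markers in the table, 7 were tested and 6 were called higher (5 without the M libraries), with a median of 2.44, with some of them also counted among the genes above. The summed level of all 9 was 140.8 and 169.9 ppm in E1 and E2 and 1256 and 1075 ppm in RE1 and RE2. Most of the RE sums came from *Pdgfrb*, at 806 and 686 ppm, and *Col1a1*, at 269.7 and 201 ppm. The fibroblast markers *Dpt* and *Thy1* were at 0 in all 4 libraries, and *Dcn* (decorin) was at 0.496 and 0.304 ppm and 3.77 and 1.74 ppm. Of the 10 myoepithelial markers 9 were tested and 4 were called higher (2 without the M libraries), with summed levels of 385.0 and 322.4 ppm in the E libraries and 600.9 and 580.9 ppm in the RE libraries, and *Oxtr* was at the floor throughout. Leucocyte and endothelial markers stayed low, with sums between 7.12 and 11.04 ppm and between 2.26 and 4.72 ppm over 9 genes each. The leucocyte markers *Ptprc*, *Emr1* and *Cd3e* and the endothelial *Kdr*, *Tie1* and *Cldn5* were at the floor in all 4 libraries, while *Lyz2* and *Flt1* were called higher at mean levels of 0.708 and 3.12 ppm in RE cells. Of 8 adipocyte markers 2 were tested and none was called. Whether cells of another type contributed to the differences was not tested.

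Genes of the fibrillar matrix and its glycoproteins gave many of the higher calls in RE cells. Of 24 collagen genes tested, 10 were called higher and 2 lower (median 1.35), and of 34 matrix glycoproteins and proteoglycans 15 were called higher and none lower (median 1.14). *Col12a1*, a collagen that decorates fibrils, was at 20.3 and 47.5 ppm in the E libraries and 420.1 and 316 ppm in the RE libraries (log2 fold change 3.55 ± 0.37, adjusted p = 0.00114). *Col1a1*, a chain of type I collagen, was at 31.6 and 33.04 ppm and 269.7 and 201 ppm (log2 fold change 2.85 ± 0.18, adjusted p = 0.00028). *Col3a1*, the chain of type III collagen, was at 0.254 and 0.157 ppm and 2.78 and 2.304 ppm (log2 fold change 3.12 ± 0.27, adjusted p = 0.000666). Both RE libraries were far above both E libraries in all of these genes, with RE1 above RE2. Opposite to them, *Col7a1*, the anchoring fibril collagen below stratified epithelia, fell from 19.7 and 22.3 ppm to 5.71 and 6.85 ppm (log2 fold change -1.73 ± 0.17, adjusted p = 0.000857), and *Col15a1*, a basement membrane collagen, from 2.17 and 2.47 ppm to 0.502 and 0.534 ppm (log2 fold change -1.97 ± 0.29, adjusted p = 0.00348).

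The glycoprotein calls, which left 19 of the 34 genes uncalled, included proteins of elastic fibres and of matrix crosslinking. *Loxl3*, a lysyl oxidase that crosslinks collagen and elastin, was at 6.39 and 6.78 ppm in the E libraries and 61.5 and 59.5 ppm in the RE libraries (log2 fold change 3.18 ± 0.14, adjusted p = 0.000125). *Fbln5*, an elastic fibre protein, was at 0.301 and 0.231 ppm and 5.196 and 2.47 ppm (log2 fold change 3.34 ± 0.39, adjusted p = 0.0016). *Emilin1*, a glycoprotein of elastic fibres, was at 0.542 and 0.472 ppm and 4.47 and 4.62 ppm (log2 fold change 2.94 ± 0.26, adjusted p = 0.000686). *Loxl3* and *Emilin1* were nearly equal in RE1 and RE2, while *Fbln5* was higher in RE1 than in RE2. *Sdc3*, a heparan sulphate proteoglycan of the cell surface, rose from 9.66 and 16.1 ppm to 76.5 and 87.3 ppm (log2 fold change 2.70 ± 0.25, adjusted p = 0.000809). *Thbs1* (thrombospondin-1), a matricellular activator of latent TGFβ, gained the most coverage of any called gene, from 1001 and 1298 ppm to 3376 and 3411 ppm (log2 fold change 1.57 ± 0.18, adjusted p = 0.00152). Without the M libraries 6 of the 10 collagen calls and 10 of the 15 glycoprotein calls passed, and after removal of trends on transcript length and GC content 9 and 13 did.

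Basement membrane genes gave 1 call in each direction. Of 15 laminins and basement membrane genes, *Ntn4* was called higher and *Lamc3* lower, 6.67% each way against 5.92% and 3.16% of all genes. Neither call passed without the M libraries, and the median was -0.076. *Lama5*, a laminin chain of epithelial basement membranes, lay at 1611 and 3024 ppm in the E libraries and 1340.2 and 1269 ppm in the RE libraries and was not called (adjusted p = 0.0753). Among integrins, the matrix receptors, 4 of 17 were called higher and 1 lower. *Itgb8*, which pairs with αv to activate latent TGFβ, rose from 1.33 and 2.74 ppm to 19.7 and 11.6 ppm (log2 fold change 2.92 ± 0.41, adjusted p = 0.00303), and its partner *Itgav* from 49.4 and 88.5 ppm to 209 and 195 ppm (log2 fold change 1.61 ± 0.25, adjusted p = 0.00434). *Itgb2*, the beta chain of leucocyte integrins, fell from 44.1 and 41.4 ppm to 7.57 and 8.105 ppm (log2 fold change -2.43 ± 0.22, adjusted p = 0.000755), and it was the only integrin call that passed without the M libraries. *Itgb1*, the common beta chain, lay at 783 and 849.9 ppm and 1107 and 1082 ppm and was not called.

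Among 31 matrix proteases and inhibitors, 9 were called higher and 1 lower, with a median of 0.53, and 6 of the 9 passed without the M libraries. The genes with the largest changes belonged to the ADAMTS family of secreted metalloproteases and their catalytically inactive ADAMTS-like relatives. *Adamts12* was at 0.0231 and 0 ppm in E1 and E2, at the floor, and at 3.96 and 2.35 ppm in RE1 and RE2, at least 42.6-fold higher against 3 reads' worth per library. *Adamts6* rose from 5.67 and 10.04 ppm to 65.3 and 53.6 ppm (log2 fold change 2.95 ± 0.26, adjusted p = 0.000661), and *Adamtsl4*, a fibrillin-binding protein, from 30.1 and 35.05 ppm to 164 and 164 ppm (log2 fold change 2.34 ± 0.18, adjusted p = 0.000488). *Mmp10* (stromelysin-2) moved the other way, from 1.63 and 1.25 ppm to 0.168 and 0.241 ppm (log2 fold change -2.34 ± 0.26, adjusted p = 0.00135).

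**Figure D4:**
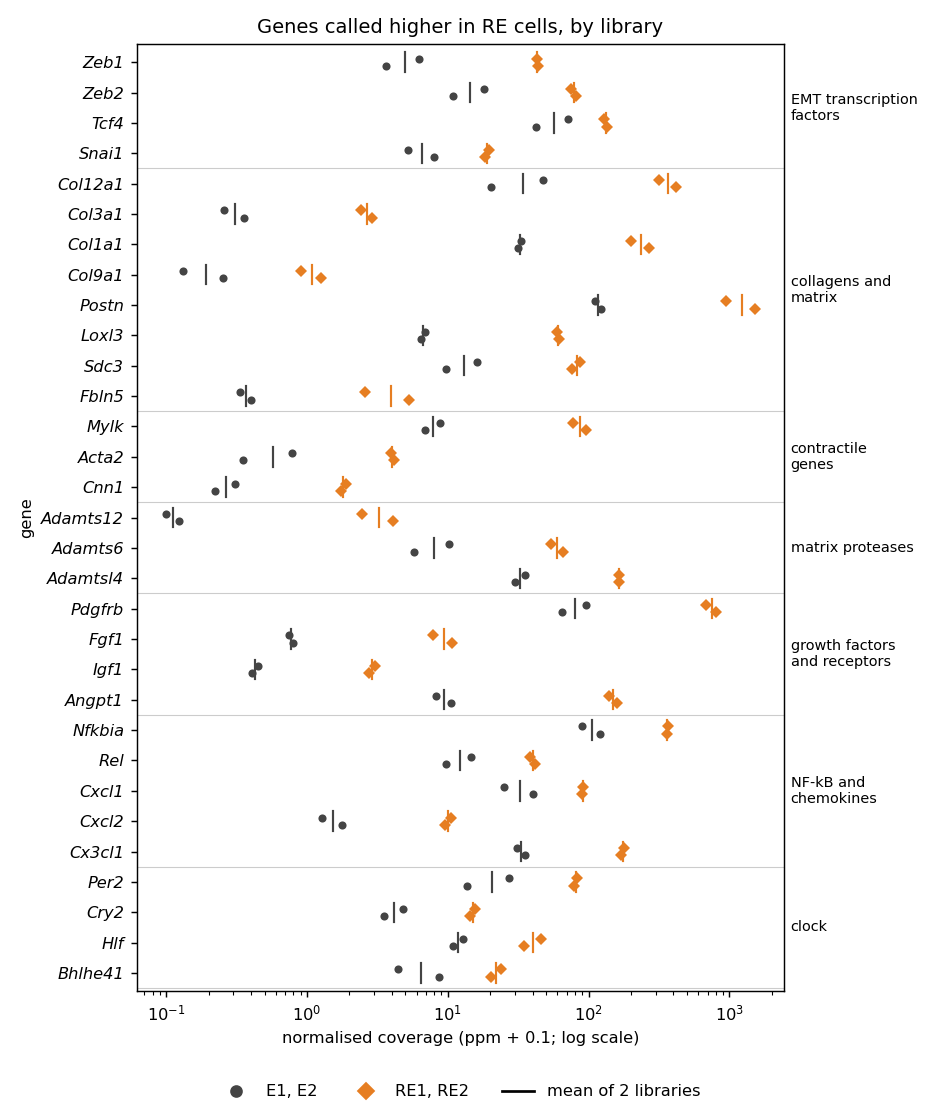
Normalised coverage in ppm plus 0.1 (log axis) of 31 genes called higher in RE cells, grouped by role, with grey circles for E1 and E2, orange diamonds for RE1 and RE2 and a vertical line at the mean of each pair. As for every gene called higher, both RE libraries lie to the right of both E libraries, with wide gaps in *Adamts12*, *Mylk*, *Pdgfrb* and *Angpt1*.

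Signals and receptors of the TGFβ family were partly higher in RE cells, which had been without added TGFβ1 for 4 days. Of 15 ligands, receptors and latent binding proteins, 6 were called higher and none lower (median 0.67), and 3 of the 6 passed without the M libraries. *Tgfb2*, a TGFβ isoform, was at 14.1 and 15.6 ppm in the E libraries and 43.5 and 37.9 ppm in the RE libraries (log2 fold change 1.45 ± 0.14, adjusted p = 0.000895). *Tgfbr3* (betaglycan), the co-receptor that presents TGFβ2, was at 34.1 and 45.8 ppm and 146 and 114 ppm (log2 fold change 1.71 ± 0.19, adjusted p = 0.00138). *Acvr1*, a type I receptor of BMPs and activins, was at 24.1 and 35.5 ppm and 86.6 and 77.1 ppm (log2 fold change 1.48 ± 0.19, adjusted p = 0.0023). The E and RE libraries were apart in each of these. Of 14 Smads, feedback regulators and direct targets, none was called higher and *Ctgf* was called lower (median 0.14). *Ctgf*, a matricellular target of both Smad and YAP signalling, fell from 151 and 203 ppm to 64.6 and 62.8 ppm (log2 fold change -1.46 ± 0.16, adjusted p = 0.00138). The feedback inhibitor *Smad7* lay at 24.5 and 27.5 ppm and 13.7 and 17.9 ppm. It was not called, and it was chosen here after its values were seen.

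In the BMP and activin list 2 of 22 genes were called higher and 2 lower, 9.09% each way against 5.92% and 3.16% of all genes. *Id2*, a BMP target that inhibits helix-loop-helix factors, was at 15.8 and 8.53 ppm in the E libraries and 41.1 and 44.1 ppm in the RE libraries (log2 fold change 1.87 ± 0.28, adjusted p = 0.00364). Its relative *Id3* was at 14.4 and 11.1 ppm and 40.2 and 43.8 ppm (log2 fold change 1.72 ± 0.20, adjusted p = 0.00146). Both genes were in the same order in all libraries, with RE2 highest and E2 lowest. The antagonist *Nog* (noggin) fell from 1.83 and 1.36 ppm to 0.274 and 0.453 ppm (log2 fold change -1.88 ± 0.34, adjusted p = 0.00725), and *Gdf15*, a stress-induced family member, from 0.718 and 0.785 ppm to 0.0396 and 0.161 ppm (log2 fold change -2.16 ± 0.41, adjusted p = 0.00841). *Id3* alone of these 4 passed without the M libraries.

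A pair of EGF receptor ligands was lower. Of 13 EGF ligands and ErbB receptors 2 were called lower and none higher, and both passed without the M libraries. *Hbegf*, a membrane-anchored ligand of the EGF receptor, was at 20.4 and 27.7 ppm in E1 and E2 and 7.53 and 7.45 ppm in RE1 and RE2 (log2 fold change -1.65 ± 0.19, adjusted p = 0.00141), and the other call was *Areg*. *Erbb2ip* (erbin), a scaffold that binds ErbB2 and was outside this list, rose from 226 and 263 ppm to 942 and 887 ppm (log2 fold change 1.91 ± 0.14, adjusted p = 0.000417). AP-1 and other immediate early genes are transcribed within minutes of growth factor signals. Of 30 AP-1 and immediate early genes 6 were called lower and 3 higher (median -0.21), and 3 and 1 passed without the M libraries. *Fosb*, a subunit of AP-1, was at 54.2 and 38.99 ppm in the E libraries and 6.06 and 7.43 ppm in the RE libraries (log2 fold change -2.76 ± 0.23, adjusted p = 0.00058). *Fos*, another subunit, was at 223 and 157 ppm and 60 and 51.5 ppm (log2 fold change -1.75 ± 0.19, adjusted p = 0.00136). E1 held the highest level of both. *Dusp5*, a phosphatase that inactivates nuclear ERK, fell from 73.7 and 79.1 ppm to 22.2 and 21.9 ppm (log2 fold change -1.79 ± 0.12, adjusted p = 0.000393). The feedback inhibitor *Spry1*, which was outside this list, fell from 362 and 327 ppm to 134 and 115 ppm (log2 fold change -1.47 ± 0.22, adjusted p = 0.00386). The list members called higher were the orphan nuclear receptors *Nr4a3* and *Nr4a2* and the zinc finger factor *Egr2*. *Nr4a3* was at 0.416 and 0.963 ppm and 5.11 and 5.25 ppm (log2 fold change 2.83 ± 0.36, adjusted p = 0.00209), and *Nr4a2* at 17.3 and 16.6 ppm and 52.8 and 51.1 ppm (log2 fold change 1.61 ± 0.14, adjusted p = 0.000686).

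Of 20 YAP-TEAD factors and targets, 2 were called lower and 1 higher. The matricellular protein *Cyr61* fell from 1294 and 1312 ppm to 623 and 478 ppm (log2 fold change -1.25 ± 0.18, adjusted p = 0.0034) and *Ankrd1*, a muscle ankyrin repeat protein, from 73.7 and 83.4 ppm to 27.3 and 30.2 ppm (log2 fold change -1.44 ± 0.15, adjusted p = 0.00114). *Dlc1*, a GTPase-activating protein, rose from 69.04 and 115 ppm to 346 and 333 ppm (log2 fold change 1.93 ± 0.23, adjusted p = 0.00157). *Ankrd1* and *Dlc1* passed without the M libraries and *Cyr61* did not. The TEAD motif CATTCC lay within 250 bases before the start of both *Cyr61* and *Ankrd1*, and of 14.4% of all genes. Of 5 AP-1 and immediate early genes called lower that had a promoter sequence, none held the AP-1 motif TGANTCA (7.82% of all genes) or the cyclic AMP response element TGACGTCA (1.77%), and *Dusp5* held a serum response element (1.62%).

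Among 38 other growth factors and receptors 12 were called higher and 3 lower, and 8 and 2 of them passed without the M libraries. *Fgf1*, an acidic fibroblast growth factor, was at 0.697 and 0.638 ppm in the E libraries and 10.6 and 7.79 ppm in the RE libraries (log2 fold change 3.59 ± 0.26, adjusted p = 0.000431). *Igf1*, an insulin-like growth factor made by stromal cells, was at 0.303 and 0.3505 ppm and 2.64 and 2.94 ppm (log2 fold change 2.76 ± 0.20, adjusted p = 0.000447). *Angpt4*, a ligand of Tie2, was at 1.499 and 2.66 ppm and 14.9 and 11.1 ppm (log2 fold change 2.62 ± 0.30, adjusted p = 0.00145). All 3 were low in E cells and several-fold higher in both RE libraries. *Igfbp4*, a binding protein that restrains insulin-like growth factors, fell from 4.05 and 8.59 ppm to 0.825 and 0.572 ppm (log2 fold change -2.93 ± 0.55, adjusted p = 0.00819), and *Fgf21*, a metabolic hormone of the integrated stress response, from 3.63 and 6.14 ppm to 0.315 and 0.357 ppm (log2 fold change -3.47 ± 0.31, adjusted p = 0.000686). *Lrp1*, an endocytic receptor for proteases and matrix proteins, was among the largest gains in coverage, from 549.5 and 1021 ppm to 2515 and 2188 ppm (log2 fold change 1.65 ± 0.28, adjusted p = 0.00603).

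The Wnt list was split, with 6 of 35 genes called higher and 5 lower (median 0.49). *Ror1*, a receptor for Wnt5a, was at 2.695 and 4.003 ppm in the E libraries and 29.8 and 21.3 ppm in the RE libraries (log2 fold change 2.90 ± 0.28, adjusted p = 0.000871). *Lgr4*, a receptor for R-spondins, was at 26.2 and 25.5 ppm and 90.2 and 83.9 ppm (log2 fold change 1.75 ± 0.13, adjusted p = 0.000439). Its relative *Lgr6* moved in the opposite direction, from 14.8 and 17.6 ppm to 5.23 and 5.14 ppm (log2 fold change -1.62 ± 0.16, adjusted p = 0.000868). The intracellular antagonist *Nkd2* rose from 1.08 and 2.76 ppm to 16.2 and 12.99 ppm (log2 fold change 2.99 ± 0.40, adjusted p = 0.00252), and the secreted antagonist *Sfrp1* fell from 7.29 and 9.79 ppm to 2.56 and 3.15 ppm (log2 fold change -1.54 ± 0.23, adjusted p = 0.00375). Without the M libraries 2 of the higher calls and 2 of the lower calls passed. Of 16 Notch genes 2 were called higher and 1 lower, and 0 and 1 passed without the M libraries. The lower call was the ligand *Dll1*, at 64.04 and 60.1 ppm in the E libraries and 23.7 and 23.8 ppm in the RE libraries (log2 fold change -1.38 ± 0.14, adjusted p = 0.000897).

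Guidance molecules, which steer axons and vessels and are reused by epithelia, were called in one direction, with 8 of 40 higher and none lower, and 6 of the 8 passed without the M libraries. *Plxnd1*, a semaphorin receptor, was at 13.2 and 14.9 ppm in the E libraries and 111 and 108 ppm in the RE libraries (log2 fold change 2.96 ± 0.13, adjusted p = 0.000125). *Sema3c*, a secreted semaphorin, was at 52.4 and 57.2 ppm and 218 and 220.1 ppm (log2 fold change 2.00 ± 0.19, adjusted p = 0.000895), and its relative *Sema3a* at 27.1 and 35.4 ppm and 111 and 93.5 ppm (log2 fold change 1.72 ± 0.18, adjusted p = 0.00126). In all of these the RE replicates lay close together and far above both E replicates.

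Some regulators of NF-κB, the transcription factor family of inflammatory signalling, were higher in RE cells. Of 21 subunits, inhibitors and feedback genes 7 were called higher and none lower (median 0.56), and 3 of the 7 passed without the M libraries. *Nfkbia* (IκBα), the inhibitor that is itself an NF-κB target, was at 121 and 89.9 ppm in the E libraries and 360.4 and 365 ppm in the RE libraries (log2 fold change 1.80 ± 0.16, adjusted p = 0.000686). *Rel*, the c-Rel subunit, was at 9.64 and 14.5 ppm and 41.7 and 38.5 ppm (log2 fold change 1.75 ± 0.20, adjusted p = 0.00152). *Tnip3*, which inhibits the pathway together with A20, was at 5.41 and 3.81 ppm and 13.2 and 13.01 ppm (log2 fold change 1.51 ± 0.21, adjusted p = 0.00278). RE1 and RE2 were close to each other in each of these genes and above both E libraries. Of 16 chemokines 4 were called higher and 2 lower, of which 2 and 1 passed without the M libraries. *Cxcl2*, an attractant of neutrophils, was at 1.67 and 1.17 ppm in the E libraries and 9.42 and 10.4 ppm in the RE libraries (log2 fold change 2.74 ± 0.26, adjusted p = 0.00081). *Cxcl1*, which acts on the same receptor, was at 39.8 and 24.99 ppm and 89.4 and 91.2 ppm (log2 fold change 1.51 ± 0.22, adjusted p = 0.00335). E1 exceeded E2 in both, and the RE libraries were above either. *Cx3cl1* (fractalkine), a membrane-bound chemokine, rose from 35.4 and 30.8 ppm to 171 and 179 ppm (log2 fold change 2.40 ± 0.13, adjusted p = 0.000268), and *Cxcl16* fell from 116 and 112 ppm to 55 and 51.8 ppm (log2 fold change -1.09 ± 0.12, adjusted p = 0.00146).

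The promoters of *Nfkbia*, *Cxcl1* and *Cxcl2* are shown because they carry a κB element in this search. The element was searched as GGGA and TTTCC with any 1 base between them and was found on either strand of the 250 bases before the start in 0.414% of all 27025 genes, and in 3 of the 9 NF-κB and chemokine genes that had a promoter sequence, out of 11 called higher. The windows, from RefSeq and GRCm38.p6, lie at chr12:55492648-55492701 (minus strand), chr5:90891149-90891208 (plus strand) and chr5:90903777-90903836 (plus strand), with the match or its reverse complement in capitals.
Nfkbia: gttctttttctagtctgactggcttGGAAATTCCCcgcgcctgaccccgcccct
Cxcl1: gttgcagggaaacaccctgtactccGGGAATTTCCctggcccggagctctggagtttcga
Cxcl2: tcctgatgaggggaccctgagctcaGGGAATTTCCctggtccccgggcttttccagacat
The element began 29, 71 and 97 bases before the respective start.

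Other inflammatory genes were mixed. Of 43 cytokines and receptors 7 were called higher and 6 lower, and 3 and 2 passed without the M libraries. *Osmr*, a receptor of oncostatin M, rose from 35.8 and 46.9 ppm to 160 and 165 ppm (log2 fold change 1.98 ± 0.16, adjusted p = 0.00058), and *Il1rap*, the accessory chain of the interleukin-1 receptor, from 7.02 and 9.16 ppm to 37.4 and 33.3 ppm (log2 fold change 2.12 ± 0.17, adjusted p = 0.000505). *Csf3*, the granulocyte colony-stimulating factor, fell from 31.95 and 26.2 ppm to 8.83 and 6.48 ppm (log2 fold change -1.92 ± 0.27, adjusted p = 0.00321). *Tnfrsf11b* (osteoprotegerin), a decoy receptor for RANKL, was at 10.6 and 10.3 ppm in the E libraries and 86.1 and 40.99 ppm in the RE libraries (log2 fold change 2.49 ± 0.31, adjusted p = 0.00205), with a wide gap between the RE libraries. Of 20 complement genes 3 (15%) were called higher and 1 (5%) lower, against 5.92% and 3.16% of all genes. Of these calls 1 and 0 passed without the M libraries. *Cd55*, which speeds the decay of convertases, fell from 8.44 and 9.58 ppm to 4.005 and 3.79 ppm (log2 fold change -1.19 ± 0.18, adjusted p = 0.00367). *C3*, the central complement component, was at 932 and 964 ppm and 1141 and 1114 ppm and was not called. The acute phase protein *Cp* (ceruloplasmin), a copper carrier and ferroxidase, was at 1766 and 1291 ppm and 3541 and 3177 ppm (log2 fold change 1.15 ± 0.21, adjusted p = 0.00819), and 2 of 20 genes of its list were called higher and 1 lower. None of these calls passed without the M libraries, and that of *Cp* was also lost with library totals and after removal of length and GC trends. Of 42 interferon-stimulated genes 5 were called higher (2 without the M libraries) and 1 lower (0), among them the factor *Irf1*, at 75.03 and 70.3 ppm in the E libraries and 233 and 207 ppm in the RE libraries (log2 fold change 1.59 ± 0.12, adjusted p = 0.000488).

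Genes of the circadian clock were among the lists with the highest share of calls. Of 18 tested, 8 were called higher and 1 lower (median 0.76), and 4 of the 8 passed without the M libraries. *Per2*, a repressor of the clock, was at 13.6 and 27.2 ppm in the E libraries and 79.1 and 82.7 ppm in the RE libraries (log2 fold change 2.06 ± 0.30, adjusted p = 0.0034). Its partner *Cry2* was at 3.404 and 4.69 ppm and 14.2 and 15.6 ppm (log2 fold change 1.87 ± 0.20, adjusted p = 0.00131). The groups were apart in both repressors. *Hlf*, an output factor that binds D-boxes, was at 10.7 and 12.6 ppm and 34.9 and 45.8 ppm (log2 fold change 1.77 ± 0.21, adjusted p = 0.00171). *Bhlhe41*, a repressor of E-box activity, was at 8.49 and 4.296 ppm and 20.1 and 23.8 ppm (log2 fold change 1.84 ± 0.33, adjusted p = 0.00715). The repressor *Gm129* fell from 14.6 and 28.2 ppm to 5.13 and 5.93 ppm (log2 fold change -1.86 ± 0.30, adjusted p = 0.00469). The E libraries lay further apart than the RE libraries in *Per2* and *Bhlhe41*. The time of day at which the cultures were collected is not given in the sources used here, and the share of any difference in collection time in these values was not tested.

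Among the 7 clock genes called higher that had a promoter sequence, *Per1*, *Tef* and *Bhlhe41* held the clock E-box CACGTG within 250 bases before the start, and 6.86% of all genes did. The D-box TTATGNAA was found in *Per1* only, and in 3.63% of all genes. *Per1* and *Tef* were chosen for this motif after their values were seen. *Per1*, a repressor of the clock, was at 65.4 and 64.6 ppm in the E libraries and 158 and 169 ppm in the RE libraries, and *Tef*, an output factor, at 18.8 and 19.8 ppm and 42.4 and 44.1 ppm. The windows lie at chr11:69098758-69098813 (plus strand), chr15:81802521-81802576 (plus strand) and chr6:145865543-145865598 (minus strand) of GRCm38.p6, with the E-box in capitals.
Per1: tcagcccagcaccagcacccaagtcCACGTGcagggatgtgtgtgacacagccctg
Tef: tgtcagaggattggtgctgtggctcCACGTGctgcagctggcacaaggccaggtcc
Bhlhe41: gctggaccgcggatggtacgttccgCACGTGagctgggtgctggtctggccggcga

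Several genes that respond to shortage of amino acids were lower in RE cells. Of 32 genes of the unfolded protein and amino acid response 6 were called lower and 1 higher (median -0.15), and 3 of the 6 passed without the M libraries. *Asns*, which makes asparagine, was at 888 and 853 ppm in the E libraries and 286 and 312 ppm in the RE libraries (log2 fold change -1.54 ± 0.13, adjusted p = 0.000602). *Trib3*, a pseudokinase induced by the factor Atf4, was at 87.2 and 152 ppm and 19.5 and 20.9 ppm (log2 fold change -2.51 ± 0.25, adjusted p = 0.000897). *Slc7a3*, a transporter of cationic amino acids, was at 2.8 and 3.65 ppm and 0.395 and 0.348 ppm (log2 fold change -2.81 ± 0.26, adjusted p = 0.000794). The libraries of E and RE cells were far apart in all of these, and the RE replicates nearly coincided. *Herpud1*, a component of degradation at the endoplasmic reticulum, was the member called higher, from 185 and 183 ppm to 399.6 and 364 ppm (log2 fold change 1.05 ± 0.12, adjusted p = 0.00152).

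The amino acid response element, searched as TGATGNAA on both strands, was found before the start of *Asns*, *Chac1* and *Vldlr*, 3 of the 5 genes called lower that had a promoter sequence, and of 3.91% of all genes. *Chac1*, a glutathione-degrading enzyme, was at 38.3 and 70.7 ppm in the E libraries and 17.1 and 19.1 ppm in the RE libraries and was chosen for its motif after its values were seen. *Vldlr*, a lipoprotein receptor, was at 3.54 and 10.6 ppm and 0.682 and 0.314 ppm (log2 fold change -3.46 ± 0.53, adjusted p = 0.00421). The windows lie at chr6:7693210-7693257 (minus strand), chr2:119351024-119351081 (plus strand) and chr19:27216795-27216852 (plus strand) of GRCm38.p6, with the match or its reverse complement in capitals.
Asns: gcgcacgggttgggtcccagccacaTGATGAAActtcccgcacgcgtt
Chac1: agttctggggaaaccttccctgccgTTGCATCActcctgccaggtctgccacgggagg
Vldlr: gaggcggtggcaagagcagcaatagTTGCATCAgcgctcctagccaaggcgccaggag

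Part of the sterol and fatty acid synthesis genes were higher. Of 34 tested 8 were called higher and none lower (median 0.56), and 2 of the 8 passed without the M libraries. *Hsd17b7*, an enzyme of late cholesterol synthesis, was at 14.6 and 17.2 ppm in the E libraries and 58.1 and 51.5 ppm in the RE libraries (log2 fold change 1.78 ± 0.15, adjusted p = 0.000602). *Scd1*, the desaturase that makes oleate, was at 117 and 135 ppm and 387 and 384 ppm (log2 fold change 1.61 ± 0.17, adjusted p = 0.00113). *Idi1*, an isomerase of the mevalonate pathway, was at 1.5 and 1.52 ppm and 4.35 and 4.78 ppm (log2 fold change 1.53 ± 0.21, adjusted p = 0.00259). The RE libraries were close to each other and above both E libraries in each of these. *Fasn* (fatty acid synthase) was not called, at 1153 and 1343 ppm and 1655 and 1685 ppm. After removal of length and GC trends 4 of the 8 calls passed.

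Of 38 antioxidant and detoxification genes 5 were called higher and 1 lower, and 1 and 1 passed without the M libraries. *Cyp1b1*, a cytochrome induced through the aryl hydrocarbon receptor, rose from 9.33 and 12.4 ppm to 54.97 and 59.9 ppm (log2 fold change 2.40 ± 0.21, adjusted p = 0.000623), and *Nqo1*, a quinone reductase, from 16.4 and 9.302 ppm to 40.7 and 41.03 ppm (log2 fold change 1.72 ± 0.25, adjusted p = 0.00346). *Cyp2f2* fell from 21.2 and 13.7 ppm to 2.99 and 1.64 ppm (log2 fold change -2.88 ± 0.35, adjusted p = 0.00182). Of 19 N-glycan branching enzymes the sialyltransferase *St6gal1* was called, rising from 0.624 and 1.23 ppm to 4.75 and 3.58 ppm (log2 fold change 2.11 ± 0.31, adjusted p = 0.0037).

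Regulators of the cell cycle were called in both directions. Of 33 cell cycle control genes 5 were called higher and 3 lower, with 2 and 0 of them passing without the M libraries. *Ccnd1* (cyclin D1) was at 211 and 299 ppm in the E libraries and 90.8 and 101 ppm in the RE libraries (log2 fold change -1.39 ± 0.18, adjusted p = 0.0023). *Myc*, a driver of growth genes, was at 228 and 337 ppm and 115 and 115 ppm (log2 fold change -1.27 ± 0.20, adjusted p = 0.00433). *Cdkn1a* (p21), an inhibitor of cyclin-dependent kinases, was at 23.8 and 27.4 ppm and 10.9 and 11.7 ppm (log2 fold change -1.17 ± 0.15, adjusted p = 0.00232). Genes that drive and a gene that restrains division were thus lower side by side. *Rbl2* (p130), which holds quiescent cells out of the cycle, rose from 25.6 and 25.5 ppm to 93.2 and 84.2 ppm (log2 fold change 1.79 ± 0.12, adjusted p = 0.000393), and the stress-responsive *Sesn1* from 30.4 and 22.1 ppm to 128 and 112 ppm (log2 fold change 2.20 ± 0.18, adjusted p = 0.000543). Among 45 DNA replication and 48 mitosis genes, 1 and 2 were called lower (0 and 0 without the M libraries) and none higher. These were 2.22% and 4.17%, against 3.16% of all genes, and the medians were -0.35 and -0.39. *Top2a*, a topoisomerase of dividing cells, was at 1271 and 1151 ppm and 871 and 986 ppm and *Mki67*, the gene of the proliferation antigen Ki67, at 744 and 804 ppm and 847 and 951 ppm. Neither was called, and the log2 fold change of *Mki67*, 0.21, was negative after removal of length and GC trends.

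Markers of mammary lineage and of stem cells moved in both directions. Of 14 mammary lineage and lactation genes 2 were called higher and 3 lower, and 1 and 2 passed without the M libraries. *Prlr*, the prolactin receptor, was at 0.228 and 0.3101 ppm in the E libraries and 2.69 and 2.32 ppm in the RE libraries (log2 fold change 2.82 ± 0.32, adjusted p = 0.00141). *Csn3* (kappa-casein), a milk protein, was at 1.47 and 1.64 ppm in the E libraries and at the floor in the RE libraries, at least 23.7-fold lower. *Lpl* (lipoprotein lipase) fell from 62.7 and 94.3 ppm to 33.9 and 35.9 ppm (log2 fold change -1.14 ± 0.20, adjusted p = 0.00713). Receptor and milk product thus lay on opposite sides. Of 17 stem cell and tumour-initiating markers 2 were called higher and 1 lower. *Aldh3a1*, an aldehyde dehydrogenase, rose from 104 and 57.4 ppm to 317 and 386 ppm (log2 fold change 2.18 ± 0.26, adjusted p = 0.0018), *Sox9*, a factor of mammary progenitors, from 98.3 and 97.5 ppm to 189.7 and 224 ppm (log2 fold change 1.07 ± 0.15, adjusted p = 0.00283), and *Ly6a* (Sca-1) fell from 89.1 and 69.6 ppm to 23.9 and 19.8 ppm (log2 fold change -1.85 ± 0.18, adjusted p = 0.000895). *Ly6a* alone of these 3 passed without the M libraries.

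Ribosomal protein genes lay lower in RE cells by a moderate amount, mostly under the fold limit. Of 78 ribosomal protein genes 8 (10.3%, against 3.16% of all genes) were called lower and none higher, with a median of -0.76. Both RE libraries lay below both E libraries for 72 of the 78, against 33.3% of all genes. *Rpl17* was at 9.71 and 7.52 ppm in the E libraries and 3.07 and 3.23 ppm in the RE libraries (log2 fold change -1.41 ± 0.20, adjusted p = 0.00306). None of the 8 calls passed without the M libraries and 2 passed after removal of length and GC trends. Ribosomal proteins have pseudogene copies with which they may share reads. Of 74 genes of oxidative phosphorylation 2 (2.7%, against 3.16% of all genes) were called lower and none higher (median -0.40). Without the M libraries 1 of the 2 passed. *Cox6a2*, a muscle-type subunit of cytochrome oxidase, was at 1.83 and 3.06 ppm in the E libraries and at the floor in the RE libraries, at least 37.3-fold lower.

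Transcript length moved with the comparison. With the 12973 genes that had a length divided into 5 classes of equal size, the median log2 fold change rose from -0.304 in the shortest class to 0.364 in the longest, and the share called higher from 2% to 12.3%. The share called lower fell from 5.24% to 1.23%. The E replicates differed in the same way, with a median difference of E2 minus E1 of -0.284 in the shortest and 0.451 in the longest class, whereas RE2 minus RE1 lay between 0.0343 and -0.0604. Against E1 alone the RE libraries had medians of -0.422 and 0.585 in the shortest and longest classes, and against E2 alone of -0.178 and 0.134. Matrix genes are often long and ribosomal protein genes short. The part of length in the calls was addressed by removing each library's trend on length and GC content, which could be done for 1228 of the 1262 called genes. Of these, 973 passed again in the same direction. There were 1342 calls in that fit, 763 higher and 579 lower.

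**Figure D5:**
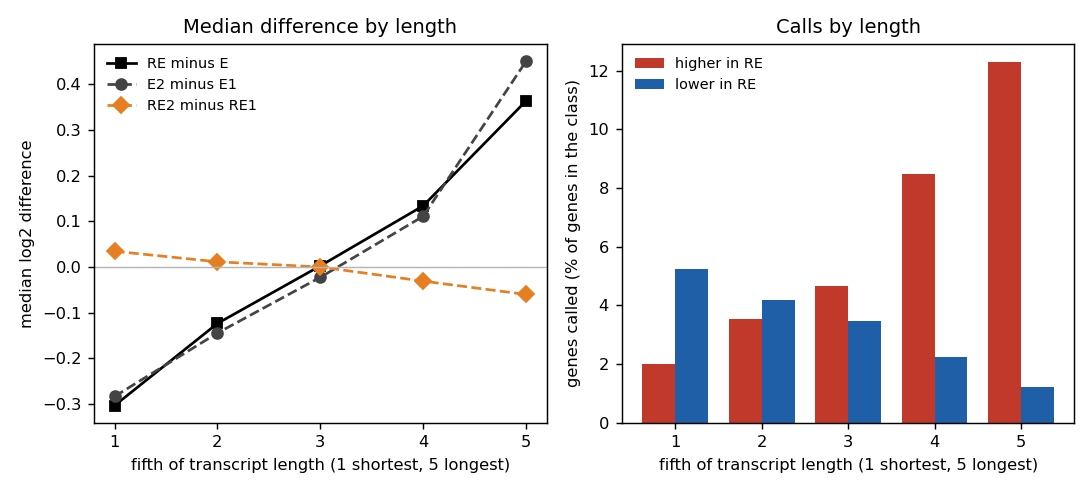
Left, median log2 difference in each of 5 classes of transcript length for RE minus E (black squares), E2 minus E1 (grey circles) and RE2 minus RE1 (orange diamonds). Right, share of genes in each class called higher (red) and lower (blue) in RE cells, which run from 2% to 12.3% and from 5.24% to 1.23%.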

How the data were processed

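RNA of EpH4 cells in the E, M and RE stages (2 libraries each) was sequenced on an Illumina Genome Analyzer, and the authors mapped unique reads to NCBI-m37 with Bowtie and TopHat2. The versions and the step that summed reads per gene are not given in the sources used here. The deposited values are coverage per gene, which behave as bases of 50-base reads and are not counts, so a count test was not used. Genes with at least 500 bases in 2 or more libraries (13893) were scaled by unweighted TMM to ppm and tested as log2(ppm + 0.1) with limma 3.58.1 in R 4.3.3, on all 6 libraries with group as the only factor and a trended variance. The adjusted p is Benjamini-Hochberg over all genes tested. On simulated data 63.5% of 197 genes changed by 2 on the log2 scale were called in the right direction, and 2 unchanged genes were called. The simulation gave every group the same spread per gene and held no length trend. It therefore cannot show the error rate under the wider spread of the E libraries and the length trend of the data. The comparison, lists and members were chosen with earlier results of these data known. Genes were named by size of change and by list, with 2 to 4 per list and direction. A few genes are not reported here.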

Additional observations from a re-analysis of the deposited data

How the results depend on the processing

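Under 17 alternative settings the direction held for every one of 218 named genes in each setting that tested it, except *Mki67*, whose log2 fold change of 0.21 became -0.30 after removal of trends on transcript length and GC content, with and without the replicate block. The removal of these trends was chosen after seeing the data. In all 1262 called genes the E and RE libraries did not overlap. Leaving out a library or changing a threshold could therefore not reverse the direction of a called gene. Against 823 higher and 439 lower calls, a fold limit of 1.5 gave 663 lower calls and an adjusted p of 0.05 gave 684. The fit to the E and RE libraries alone gave 320 higher and 142 lower calls and 101 called list members, against 237, and 101 of the named genes lost the call. Leaving out 1 library at a time, with the lone sample assumed to vary like the other groups, gave between 8 and 1578 higher calls, between 0 and 755 lower calls and between 4 and 342 called list members. The lowest counts came without RE1 and the highest without E2, and the cause was not tested. Without RE1 limma called no gene lower, while 3564 genes had an unadjusted p below 0.05 in either direction. Of the named genes 202 lost the call without RE1, 187 without RE2, 10 without E1 and 9 without E2, and in the remaining settings between 0 and 29 did. Library totals in place of TMM moved the median of all genes to -0.0825 and the share of calls that were higher from 65.2% to 57.1%, and removal of length and GC trends moved it to 56.9%. Blocking on the replicate number gave 1212 calls, 1166 of them shared with the fit without the block. The deviations of same-numbered libraries correlated at 0.0579 between E and RE, 0.266 between E and M and 0.116 between M and RE, and with 2 replicates no source gives the numbers as a pairing. The limits are the 2 libraries per group, the wide spread between E1 and E2, and coverage that does not give the number of reads per gene.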

Other observations

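Some further families were grouped after their values were seen, so their counts are descriptions and were given no test. They share *Asns*, *Shmt2*, *Sesn1*, *Ccng2* and *Rbl2* with the gene lists of the report. Of 20 enzymes grouped around amino acid and one-carbon metabolism, 11 were called lower in RE cells and none higher, against 3.16% of all genes called lower. The median log2 fold change was -1.26, and 6 of the 11 passed in the fit without the M libraries. *Pck2* and *Gls2*, which are not enzymes of amino acid synthesis, are among the 11 and the 6. *Pycr1*, which makes proline, was at 46.1 and 66.9 ppm in E1 and E2 and 9.62 and 9.98 ppm in RE1 and RE2 (log2 fold change -2.49 ± 0.20, adjusted p = 0.000527). *Psph*, the last enzyme of serine synthesis, was at 116 and 155 ppm and 32.6 and 32.6 ppm (log2 fold change -2.04 ± 0.16, adjusted p = 0.000498), and *Cth*, which makes cysteine, at 109 and 129 ppm and 21.3 and 24.1 ppm (log2 fold change -2.39 ± 0.17, adjusted p = 0.000424). The mitochondrial one-carbon enzymes *Shmt2* and *Mthfd2* had log2 fold changes of -1.41 and -1.40 and did not pass in that fit. Of 20 cytosolic aminoacyl-tRNA synthetases, which load tRNAs with amino acids, 4 were called lower and none higher (median -0.72). These were *Cars*, *Gars*, *Sars* and *Vars*, of which only *Cars* passed without the M libraries. *Vars* was at 1291 and 1429 ppm in the E libraries and 542 and 668 ppm in the RE libraries. None of the 17 mitochondrial synthetases was called (median -0.36).

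Of 16 sestrins, Forkhead box O factors and known targets of these factors, 11 were called higher and none lower (median 1.23), against 5.92% of all genes called higher. The factors *Foxo1*, *Foxo3* and *Foxo4* were not called. Without the M libraries 5 of the 11 passed, *Sesn3* among them and *Txnip* not. *Txnip*, an inhibitor of thioredoxin and of glucose uptake, was at 38.95 and 61.4 ppm in the E libraries and 132 and 118 ppm in the RE libraries (log2 fold change 1.35 ± 0.22, adjusted p = 0.00535), and *Sesn3*, a sestrin, at 25.5 and 26.99 ppm and 93.2 and 79.96 ppm (log2 fold change 1.71 ± 0.13, adjusted p = 0.000488). Of 7 Toll-like receptors 4 were called higher and none lower, and only *Tlr4* passed without the M libraries. *Tlr2*, a receptor for bacterial lipopeptides, was at 137 and 62.2 ppm and 509 and 466 ppm (log2 fold change 2.40 ± 0.32, adjusted p = 0.00256), and its partners *Tlr1* and *Tlr6* had log2 fold changes of 1.29 and 1.38. *Tlr4*, the receptor for lipopolysaccharide, was at 35.9 and 32.3 ppm and 85.6 and 74.2 ppm (log2 fold change 1.23 ± 0.14, adjusted p = 0.00138). Of 3 giant cadherins of the Fat and Dachsous type, *Fat2* and *Fat4* were called higher, with log2 fold changes of 2.34 and 2.11, and only *Fat2* passed without the M libraries.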
